A study of Mus musculus with 12 samples.

Results

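The sites described here are 5-formylcytosine (5fC) bases listed in TDG-proficient control mouse embryonic stem cells for which Tdg knockout cells had a listed base only on the neighbouring position. They were chosen by the listed positions in both genotypes. A member is a control site on chromosomes 1 to 19 that is absent at its own base from the knockout list, has a knockout site exactly 1 base above or below, and has no other control site 1 base away. There were 2353 such sites among 32614 autosomal control sites (7.21%, exact 95% interval 6.94 to 7.50), or 7.62% (7.32 to 7.92) of the 30890 control sites that have no control site 1 base away, called single control sites below. Their knockout partners were 2353 distinct bases, 1.70% of the 138649 autosomal knockout sites. As the rule used the positions in both lists, these numbers are a description and not a test.

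The series mapped 5fC with a bisulfite-free chemistry. Azido-indandione reacts with the formyl group, the adduct is read as T after amplification, and the azide takes a biotin for pull-down on streptavidin. The cells were lines of strain C57BL/6-ICR, either Tdg -/- (knockout) or Tdg fl/fl (control, called WT in the titles), and all were grown without feeders in serum and LIF. The labels give 12 libraries in 6 groups of 2 replicates: for each genotype, pull-down output beside input DNA with and without the label. One list of positions per genotype on the mouse build mm9 was used, with no strand, level or depth for a site, so no difference between genotypes has a replicate check and no cell type marker could be read.

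5fC arises when TET enzymes oxidise 5-methylcytosine by way of 5-hydroxymethylcytosine, and the glycosylase TDG cuts it out ahead of base excision repair. Mammalian DNA methylation sits mostly on CpG dinucleotides, which read the same on both strands, so the cytosines of 1 CpG lie on neighbouring positions, the lower on the plus strand and the upper on the minus strand. Oxidation and excision act on the cytosine of each strand separately, and a CpG can therefore carry 5fC on 1 strand alone. A member is most simply read as a CpG whose control 5fC was listed on one strand and whose knockout 5fC was listed on the other. The sequence at the members was not analysed here, since no mm9 genome was used, and the CpG reading was not tested.

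Around the 18033 single control sites that were not on a knockout site, the base below held 1177 knockout sites and the base above held 1176. These are the members themselves, so their number is fixed by the rule. At 2 bases the numbers were 13 below and 21 above, and at 3 bases 22 and 28. Offsets of 5 to 10 bases on either side held a median of 76.0 knockout sites, from 61 to 87. The count thus fell to its lowest just beyond the threshold of the rule and rose again over the next bases. Every member had a knockout site on 1 side only, and no partner had a further knockout site 1 base away.

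**Figure D1:**
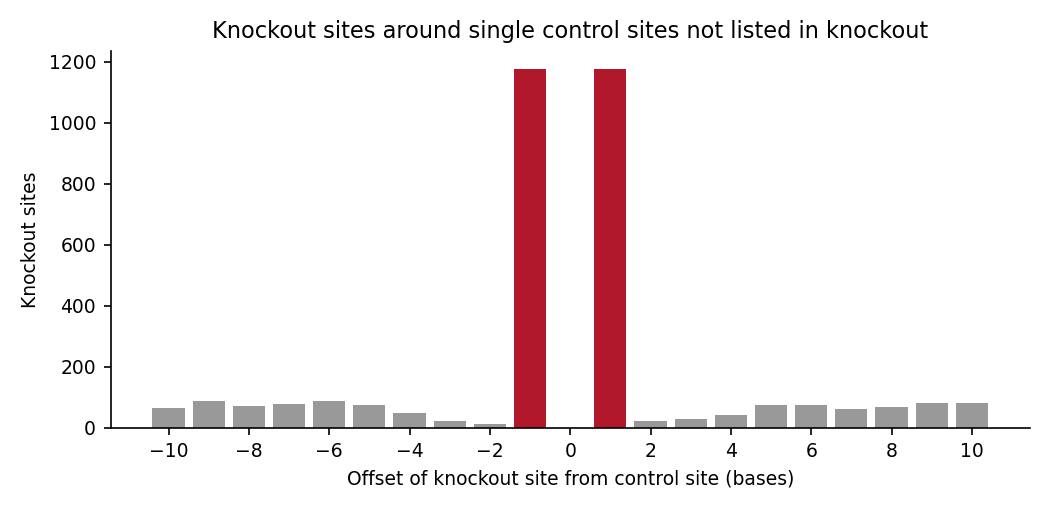
Number of knockout sites (y axis) at each offset in bases (x axis) from the 18033 single control sites that are not listed in knockout; red bars are the adjacent bases that define the members. The adjacent bases hold 1177 and 1176 knockout sites, against 61 to 87 at offsets of 5 to 10 bases.

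Members were the smallest class of single control sites by knockout state. Of the 30890 single control sites, 9899 (32.0%, 31.5 to 32.6) were matched in knockout on the same base only, 2958 (9.58%, 9.25 to 9.91) had knockout sites on the same and the adjacent base, and 15680 (50.8%, 50.2 to 51.3) had neither. Where knockout cells had exactly 1 of the 2 bases listed, it was the opposite one from control in 2353 of 12252 cases (19.2%, 18.5 to 19.9). A knockout site on the adjacent base was present at 23.0% (22.3 to 23.7) of control sites that were also listed at their own base in knockout, and at 13.0% (12.6 to 13.5) of those that were not. The second of these shares is that of the members. For comparison, control cells had 862 pairs of adjacent sites, and of these 271 (31.4%, 28.3 to 34.7) had both bases listed in knockout, 390 (45.2%, 41.9 to 48.6) had 1 of them and 201 (23.3%, 20.5 to 26.3) had neither. These shares are set by the same positions as the rule and carry no test.

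Members occurred on every autosome. Their number ran from 73 on chromosome 19 to 186 on chromosome 11, with a mean of 124 ± 35.7 (SD over 19 autosomes). As a share of single control sites they averaged 7.67% ± 0.767, with the lowest value, 6.74% (5.42 to 8.27), on chromosome 12. The highest values were 9.09% (7.78 to 10.5) on chromosome 8, with 158 members, and 9.07% (7.72 to 10.6) on chromosome 9, with 148. The intervals of 17 of 19 autosomes included the share over all autosomes, and chromosomes 8 and 9 were those whose intervals lay above it. The 19 intervals were not adjusted for their number, so these 2 chromosomes are not set apart by them. Among positions with 1 of the 2 bases listed in knockout, the opposite base took from 15.9% on chromosome 12 to 23.2% on chromosome 8. All intervals here are exact Clopper-Pearson 95% intervals or, for differences, normal ones. They cover counting error only, and neighbouring sites are not independent, so that the true uncertainty is larger.

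**Figure D2:**
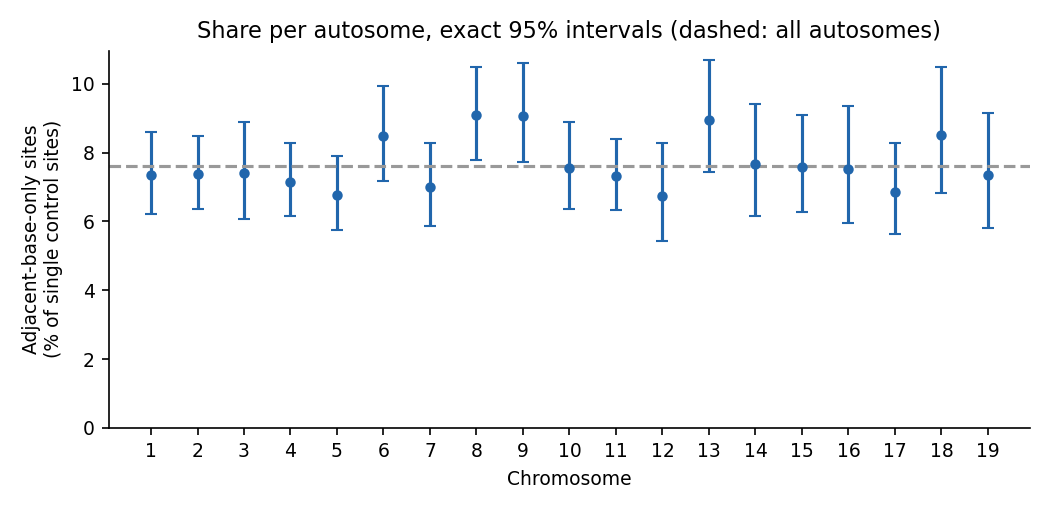
Members as a percentage of single control sites (y axis) on each autosome (x axis), with exact 95% intervals; the dashed line is the share over all autosomes, 7.62%. Chromosomes 8 and 9 sit highest, at 9.09% and 9.07%, and chromosome 12 lowest, at 6.74%.

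The side of the control site, on which the rule is blind, was evenly split. Control 5fC was on the lower base, the plus-strand cytosine in a CpG, at 1176 members and on the upper base at 1177, a share of 50.0% (47.9 to 52.0). Control sites with knockout sites on both bases had a lower share of 49.1% (47.2 to 50.9). Single chromosomes ranged from 43.5% (36.0 to 51.3) on chromosome 4 to 60.8% (48.8 to 72.0) on chromosome 16. The lower base was the more frequent on 9 of 19 autosomes. The interval included 50% on 18 of them, the exception being chromosome 7 with 74 of 125 members (59.2%, 50.1 to 67.9). These intervals were not adjusted for their number either.

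Most members had no other member close by. No other member lay within 1 kb of 2236 of the 2353, and the median distance between consecutive members was 341750 bases. The remainder formed 57 runs of 2 members and 1 run of 3, with gaps of at most 1 kb. Members were 7.21% of autosomal control sites, and 41.1% of members had any other control site within 1 kb. Isolation from sites of the same class was not counted for the other classes, so these numbers do not set members apart. Of 2045 windows of 1 Mb with a control site, 1088 held a member. The highest number in 1 Mb was 10, reached in 3 windows. These windows, found after their values were seen, were chr5:115000000-115999999 with 94 control and 353 knockout sites, chr8:122000000-122999999 with 81 and 328, and chr11:88000000-88999999 with 103 and 352. They also held 34, 33 and 44 bases shared by both lists. Shared bases outnumbered members over all autosomes as well. Among single control sites there, 12857 (41.6%) were shared and 2353 (7.62%) were members.

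Neighbouring members did not tend to one strand beyond counting error. Of 59 pairs of consecutive members up to 1 kb apart, 32 had the control site on the same side (54.2%, 40.8 to 67.3). Up to 100 bases apart, 17 of 29 did (58.6%, 38.9 to 76.5), and from over 100 to 1000 bases 15 of 30 (50.0%, 31.3 to 68.7). Over 10 kb apart the share was 1123 of 2215 (50.7%, 48.6 to 52.8). Control sites with knockout sites on both bases also have a known side, and with them included 143 of 281 pairs up to 1 kb apart were on the same side (50.9%, 44.9 to 56.9). With 29 pairs up to 100 bases apart the interval is wide, and a preference for the same side is not excluded by it.

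**Figure D3:**
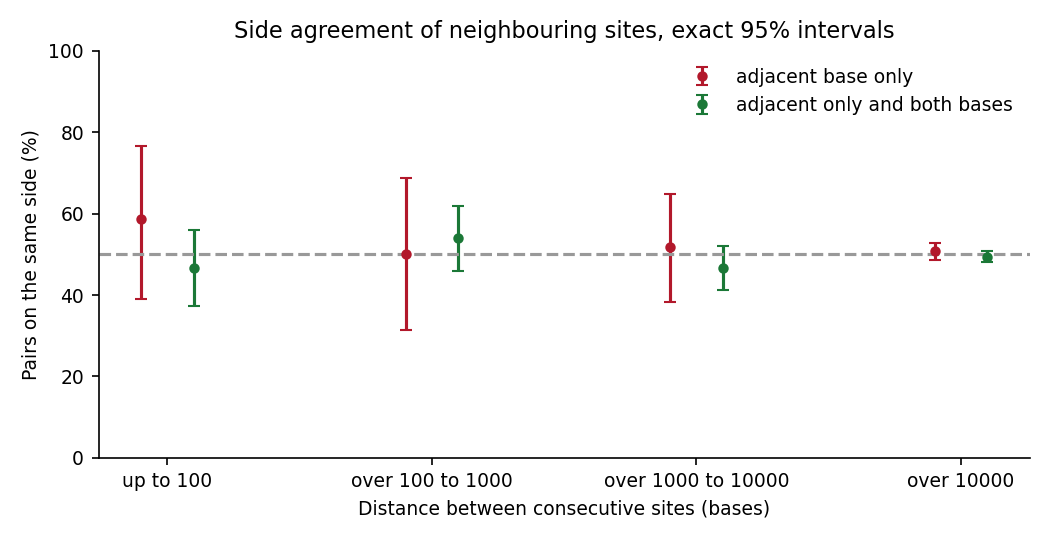
Share of consecutive sites whose control 5fC is on the same side (y axis, percent) by the distance between them (x axis, bases), for members alone (red) and with control sites that have knockout sites on both bases (green); bars are exact 95% intervals and the dashed line is 50%. Members up to 100 bases apart are at 58.6% with an interval of 38.9 to 76.5, and all intervals shown include 50%.

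Further knockout sites were common around members, as around the other single control sites. Leaving out positions within 1 base, the nearest other knockout site was at a median of 103 bases (quartiles 36 and 454). Another knockout site lay within 100 bases of 1166 members (49.6%, 47.5 to 51.6), within 1 kb of 1931 (82.1%, 80.5 to 83.6) and within 10 kb of 2209 (93.9%, 92.8 to 94.8). On average a member had 2.12 other knockout sites within 1 kb, beside 2.03 for sites on the same base only, 2.08 for sites with both bases and 2.01 for sites with neither. The median was 2 in all 4 classes. No other site of either list lay within 10 kb of 107 members (4.55%, 3.74 to 5.47), a share close to the 4.85%, 5.17% and 4.59% of the other classes in the same order.

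At close range members had more knockout neighbours than control sites listed on the same base only, and at longer range they did not differ beyond counting error. Within 100 bases the shares were 49.6% and 45.8%, a difference of 3.72 percentage points (1.47 to 5.97), with members higher on 14 of 19 autosomes. Within 1 kb the difference, which was set as the main comparison, was 0.704 points (-1.03 to 2.43), and within 10 kb -0.109 points (-1.18 to 0.967). From control sites with knockout sites on both bases, members differed by -0.683 points (-3.39 to 2.02) within 100 bases. Control sites with no knockout site on either base had the fewest close neighbours, at 38.6%, and members exceeded them by 10.9 points (8.78 to 13.1) on 17 of 19 autosomes. Knockout sites on either base and knockout sites close by come from the same list, so this last gap is not independent of how the members were chosen. In all, 24 differences of this kind were computed between members and the other classes, without adjustment, and the intervals of 8 left out 0.

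The density of knockout sites by distance was compared in ranges chosen with the values known. At 2 to 10 bases members had 4.96 other knockout sites per kb, same-base sites 4.34, sites with both bases 5.62 and sites with neither 3.08. At 11 to 20 bases the values were 5.33 for members, 5.41, 6.63 and 3.51. At 51 to 100 bases they were 3.02 for members against 2.73, 2.82 and 2.40. The order of members and same-base sites thus changed between ranges, while sites with neither were lowest in each of these 3. Farther out the order turned. From over 200 to 500 bases sites with neither were the highest, above 0.863 per kb at members, 0.822 at same-base sites and 0.765 at sites with both bases. From over 500 to 1000 bases they were again the highest at 0.538 per kb, against 0.492 at members and 0.475 at sites with both bases, the lowest.

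**Figure D4:**
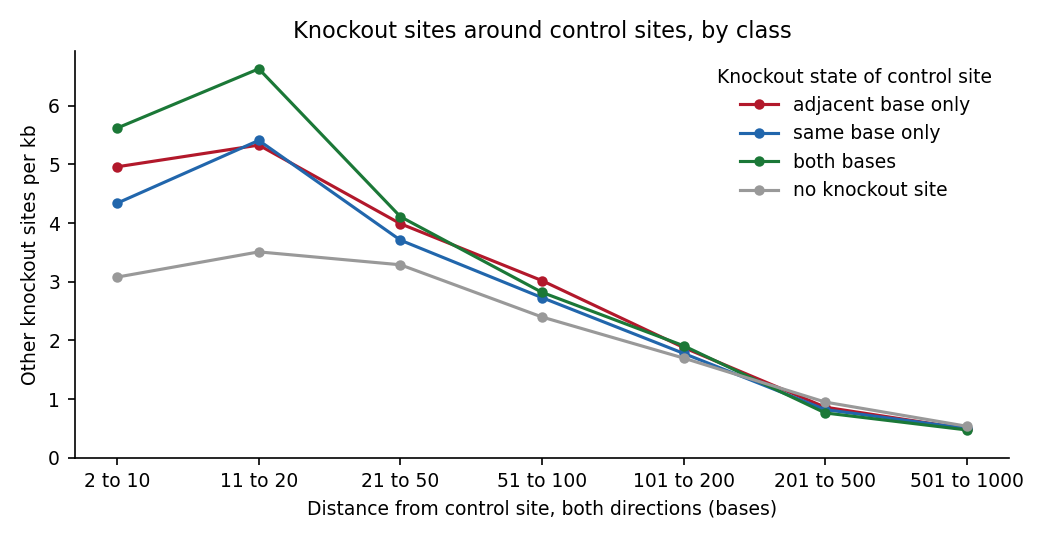
Density of knockout sites other than those within 1 base (y axis, sites per kb) by distance from the control site in either direction (x axis, bases), for the 4 classes of single control sites by their knockout state. Members (red) run from 4.96 per kb at 2 to 10 bases to 0.492 in the farthest range, and sites with no knockout site on either base (grey) start lowest, at 3.08, and end highest, at 0.538.

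Along the strand that the side of the control site gives, knockout sites were balanced. Within 1 kb of members, 2522 other knockout sites lay 3′ and 2475 lay 5′ of the control base (50.5% 3′, 49.1 to 51.9). Within 100 bases the numbers were 886 and 850 (51.0%, 48.7 to 53.4). At exactly 2 bases, 5 knockout sites lay 5′ of members and 0 lay 3′, where they would touch the partner. Control sites with knockout sites on both bases had the same numbers, 5 and 0, at 2 bases. These offsets count from the control base, and the partner lies 1 base 3′ of it. Counted from the pair of bases, 2 bases 5′ mirrors 3 bases 3′. That position held 4 knockout sites at members and 3 at sites with both bases. The base directly 5′ of the control base held 0 in both classes, like the base directly 3′ of the partner. The unequal numbers at 2 bases therefore do not compare mirrored positions. They rest on few sites and were noticed in the data. Whether the strands differ there was not tested.

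Knockout 5fC listed on both strands of a CpG would appear as 2 adjacent knockout sites, and such pairs were counted near the members. A pair of adjacent knockout sites lay within 1 kb of 496 members (21.1%, 19.4 to 22.8). The share was 18.8% at control sites on the same base only, 2.32 points lower than at members (interval of the difference 0.501 to 4.14), with members higher on 12 of 19 autosomes. It was 21.6% at control sites with knockout sites on both bases, a difference of -0.489 points (-2.71 to 1.73). At control sites with no knockout site on either base it was 17.3%. That was 3.75 points lower than at members (2.00 to 5.50), with members higher on 16 of 19 autosomes. Of all 4997 knockout neighbours of members within 1 kb, counted once per member, 1124 were in such pairs (22.5%, 21.3 to 23.7), beside 21.1% (20.6 to 21.7) of the neighbours of same-base sites.

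The member share of single control sites was compared at different local numbers of knockout sites. With 0 other knockout sites within 1 kb, 422 of 5880 single control sites were members (7.18%, 6.53 to 7.87). With 2 to 3 the share was 7.60% (7.12 to 8.11), with 4 to 6 it was 8.37% (7.59 to 9.21), and with 7 to 9 it was 9.34% (7.23 to 11.8). With 10 or more, 6 of 102 were members (5.88%, 2.19 to 12.4). The member shares were higher at each higher number up to 9. Sites with both bases made up 9.46% with 0, 9.14% with 2 to 3, 10.3% with 4 to 6 and 11.0% with 7 to 9. Knockout partners and local knockout numbers come from the same list, so the 2 are not independent. The separate intervals of the member shares overlapped, but such overlap does not show that shares are equal. No interval of a difference between these numbers was computed, so whether the rise exceeds counting error was not tested. Among positions with exactly 1 of the 2 bases listed in knockout, the opposite base made up 18.6% (17.0 to 20.3) with 0 other knockout sites. With 4 to 6 it made up 20.5% (18.7 to 22.4), and this difference was not tested either.

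**Figure D5:**
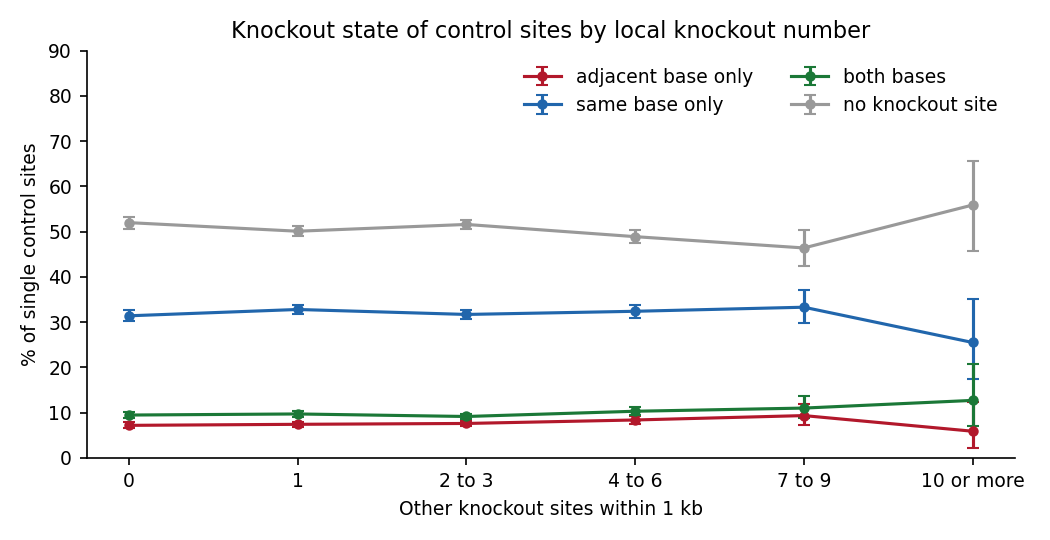
Share of single control sites in each class of knockout state (y axis, percent) by the number of other knockout sites within 1 kb (x axis), with exact 95% intervals. Members (red) go from 7.18% with 0 such sites to 9.34% with 7 to 9, and to 5.88% in the 102 control sites with 10 or more.

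Control sites, which form the shorter list, were sparser around the members than knockout sites. Another control site lay within 100 bases of 413 members (17.6%, 16.0 to 19.2) and within 1 kb of 967 (41.1%, 39.1 to 43.1), and the nearest was at a median of 2827 bases. Control sites on the same base only had 39.6% within 1 kb, 1.52 points below members (interval of the difference -0.692 to 3.73), and a median of 2797 bases. Within 100 bases members differed from them by 0.116 points (-1.59 to 1.83). Against control sites with knockout sites on both bases, members were lower by 2.36 points within 100 bases (members minus other -2.36, -4.47 to -0.254) and higher on 5 of 19 autosomes. Against control sites with no knockout site on either base, members were higher by 2.70 points within 100 bases (1.06 to 4.33). In that comparison they were higher on 15 of 19 autosomes.

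The 967 nearest control sites within 1 kb of a member were of all classes. Of them, 443 (45.8%, 42.6 to 49.0) had no knockout site on either base, 302 (31.2%, 28.3 to 34.3) had one on the same base only, 98 (10.1%, 8.30 to 12.2) had both, and 28 (2.90%, 1.93 to 4.16) belonged to a pair of adjacent control sites. The other 96 were members (9.93%). Next to control sites on the same base only, members made up 7.40% (6.60 to 8.27) of the nearest control sites, a difference of 2.53 points (0.471 to 4.58) with members higher on 10 of 19 autosomes. Next to control sites with knockout sites on both bases they made up 8.46%, a difference of 1.47 points whose interval (-0.990 to 3.93) includes 0, with members higher on 9 of 19. Next to control sites with no knockout site on either base they made up 7.07%. That difference was 2.86 points (0.866 to 4.85), with members higher on 10 of 19. When 2 members are each other's nearest control site they are counted from both ends, which makes these intervals too narrow.

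The single run of 3 members lay on chromosome 6, chr6:52212502-52213356 on mm9, with positions as listed. Its control bases were 52212502, 52212909 and 52213356, and the knockout bases beside them were 52212501, 52212910 and 52213355. The control site was thus on the upper, the lower and the upper base in turn. The stretch held 4 control and 4 knockout sites, of which 1 base was shared by both lists, and the 10 kb window around it held 12 knockout sites.

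Next by position among the runs of 2, on chromosome 1, control bases 153084133 and 153084178 faced knockout bases 153084134 and 153084177. These members were 45 bases apart with the control sites on opposite sides. On chromosome 2, control bases 23904044 and 23904380 faced knockout bases 23904045 and 23904379, 336 bases apart and again on opposite sides. Each stretch held 2 control and 2 knockout sites. All control sites there were members, so by the rule no base could be shared by the lists.

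No window of 10 kb held more than 3 members. Besides the one on chromosome 6, windows with 3 were chr11:55240000-55249999 with 3 control and 9 knockout sites, chr13:91350000-91359999 with 3 and 4, and chr18:67410000-67419999 with 4 and 10. None of these 3 windows had a base shared by both lists. In the windows on chromosomes 11 and 13 every control site was a member, so the rule fixes this. On chromosome 18 the rule fixes it for the 3 members among the 4 control sites. In the chromosome 13 window all 3 control bases, 91351014, 91356976 and 91357186, were on the upper base. Its knockout list there was 1 site longer than the 3 partners. In the windows on chromosomes 11 and 18, 1 of the 3 members was on the lower base.

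A further 80 windows held 2 members each, and the first 6 by position were on chromosomes 1 and 2. On chromosome 2, control bases 115794998 and 115795006 were 8 bases apart, on the upper and the lower base. Control bases 122112234 and 122112245 were 11 bases apart and both on the lower base, with knockout bases 122112235 and 122112246. The window chr2:59980000-59989999 was the fullest of the 6, with 5 control sites, 12 knockout sites and 3 shared bases. The windows starting at 153080000 and 158910000 on chromosome 1 held 3 and 5 knockout sites, and those starting at 23900000 and 115790000 on chromosome 2 held 3 and 5. The window starting at 122110000 on chromosome 2 held 4. Genes, exons and other features at these coordinates were not analysed here, because the gene table used is on another build.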

How the data were processed

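The authors deposited 1 list of positions per genotype (unit: other, a base position with no level). The genotype was taken from the name of each list. The name does not state the library type, and the lists were assigned to the pull-down output that the design text describes. Bismark 0.8.3, HOMER and the build mm9 appear in the submitters' processing notes, but their roles do not. How a site came to be listed, whether inputs were used, whether replicates were pooled and whether positions count from 0 or 1 is not given in the sources used here. Depth per library is unknown.

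Members and comparison classes were found with numpy 2.4.6 under Python 3.11.15, intervals came from scipy 1.17.1, and matplotlib 3.10.9 drew the figures. The class assignment was run on simulated lists of 29800 planted control positions or pairs. All (100%) received a class, and the number found in each class equalled the number planted. The class of each single position was not compared. The planted positions were widely spaced, unlike many sites of the real lists. Shares have exact Clopper-Pearson 95% intervals and differences of shares normal ones. With 1 list per genotype no p-value was computed. Named regions are the 10 windows of 10 kb with the most members, ties by position, and the 3 longest runs with gaps up to 1 kb. The members, comparisons and distances were chosen with earlier results of these data known. Sequence context, gene annotation and levels were not analysed here.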

Additional observations from a re-analysis of the deposited data

Results flagged for a closer look

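Outside the chromosomes used for the members, the X chromosome held 4 control sites that met the same conditions, noted as signal in data left out of the comparisons. They were 4 of 54 single control sites there (7.41%, exact 95% interval 2.06 to 17.9), an interval that includes the autosomal 7.62%. Unplaced sequence held 0 of 13, with an upper 95% bound of 24.7%.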

How the results depend on the processing

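Of 20 alternatives over 7 results, 16 stayed within the 95% interval of the reported value. Counting control sites with another control site 1 base away raised the share from 7.21% to 8.41%, since it adds sites. The difference from same-base sites in knockout neighbours moved from 0.704 points within 1 kb to 3.72 within 100 bases, and that in control neighbours from 1.52 points within 1 kb to -0.961 within 10 kb. The interval of the latter, -3.08 to 1.16, includes 0, and the cause of both shifts was not tested. In an alternative chosen after seeing the data, only positions with no other knockout site within 100 bases were kept. The opposite base then made up 18.1% (17.2 to 19.1) of positions with 1 of the 2 bases listed in knockout, against 19.2%. The even split of sides ranged from 49.5% to 50.5% when each chromosome was left out in turn. No paired analysis was possible because neither list separates its replicates, and leaving out replicates was not possible for the same reason. Read depth is unknown, and whether a base missing from a list was covered by reads is not known, which limits every class by an unmeasured amount.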
